A study of Mus musculus with 5 samples.

Results

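Genes of MHC class I antigen presentation were examined for acetylated histones in TM cells. The 9 genes are B2m, H2-K1, H2-D1, H2-T23, Tap1, Tap2, Tapbp, Nlrc5 and Erap1, among 21938 protein-coding genes of the mouse annotation. The list was drawn up by their known function, with earlier results of these data known. A peak was assigned to a gene where at least 1 bp of it lay in the gene body or within 10 kb of it on GRCm38. The 5 ChIPseq libraries held 61 such peaks, at 19 separate sites.

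The data are 5 lists of broad peaks, from 2 WT and 3 TPdh-/- libraries. TPdh-/- mice carry a floxed Pdha1, the E1 alpha subunit of the pyruvate dehydrogenase complex, which makes acetyl-CoA from pyruvate, and delete it through a Cre driven by CD4, which acts in the common precursors of CD4+ and CD8+ T cells. WT cells keep the gene. Mice of both sexes aged 8 to 12 weeks were used in the study, and TM cells were CD8+ T cells carrying the OT-I receptor, stimulated with OVA peptide over 3 days and then kept in 10 ng/mL IL-15 for 4 days. According to the methods the antibody binds acetylated lysine of histones, whereas the labels name K18. No source used here says which animals or cultures gave the libraries, so every p-value measures the spread between libraries, which may be technical. Since each library was made from a culture, a peak carried by more of the cells and a stronger peak in each cell cannot be told apart.

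The lists differed in length, with 15962 peaks in WT replicate 1, 8859 in WT replicate 2, and 4920, 5419 and 9418 in TPdh-/- replicates 1, 2 and 3. WT replicate 1 stands apart by its length, so values are given per library, and ranks are given with the percentile in their own list, where the peak of highest −log10 q is at 100. Read numbers are not in the lists and the depth is unknown. Of 8 CD8+ T cell markers, 7 and 5 had a promoter peak in the WT libraries and 2, 4 and 5 in the TPdh-/- libraries, Cd8b1 and Lck in all 5 and Trac in none. None of 4 myeloid or 2 NK cell markers had a promoter peak in any library. The CD4 T cell markers Cd4 and Foxp3 had a promoter peak in both WT libraries and in no TPdh-/- library. Of all genes, 42.1% and 24.8% had a promoter peak in WT and 15.3%, 16.5% and 27.9% in TPdh-/-. The share of all genes with the pattern of Cd4 and Foxp3 was not computed. The part of other cells in the results was not tested.

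MHC class I molecules show fragments of the cell's own proteins to CD8+ T cells. A heavy chain, here H2-K1, H2-D1 or the nonclassical H2-T23, folds with the light chain B2m, is held by tapasin (Tapbp) next to the TAP1-TAP2 pump that carries peptides into the endoplasmic reticulum, and receives peptides trimmed there by the aminopeptidase Erap1. Nlrc5 is the transactivator of the class I genes and acts through an enhanceosome of RFX, CREB/ATF and NF-Y factors bound at their promoters, while interferon signals act through an interferon-stimulated response element (ISRE) and inflammatory signals through kappa-B sites.

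The promoters of 6 members are shown because they carry the acetylated sites described next, apart from that of H2-T23, which shows a class I heavy chain promoter that mostly had none. Sequences come from RefSeq (GRCm38.p6), 250 bases before and 50 bases after the annotated start, and 7 of the 9 members were matched there. The ISRE core was searched as a pair of GAAA with any 2 bases between them. Capitals mark matches, on either strand, to an ISRE core, a CCAAT box (CCAAT or ATTGG), a CRE core (TGACG or CGTCA) or a kappa-B like sequence. The last was searched as the letters GGGANTN with CCC after them. The windows are chr2:122147437-122147736 on the plus strand for B2m, chr17:34000298-34000597 on the minus strand for H2-K1, chr17:35262844-35263143 on the plus strand for H2-D1, chr17:36032652-36032951 on the minus strand for H2-T23, chr17:34187306-34187605 on the plus strand for Tap1 and chr13:74639603-74639902 on the plus strand for Erap1.
B2m: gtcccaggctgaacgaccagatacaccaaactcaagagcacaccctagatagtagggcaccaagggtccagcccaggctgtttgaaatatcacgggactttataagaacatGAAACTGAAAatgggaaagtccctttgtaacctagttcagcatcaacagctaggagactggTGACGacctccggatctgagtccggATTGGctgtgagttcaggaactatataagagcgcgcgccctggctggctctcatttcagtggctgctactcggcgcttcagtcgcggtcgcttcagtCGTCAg
H2-K1: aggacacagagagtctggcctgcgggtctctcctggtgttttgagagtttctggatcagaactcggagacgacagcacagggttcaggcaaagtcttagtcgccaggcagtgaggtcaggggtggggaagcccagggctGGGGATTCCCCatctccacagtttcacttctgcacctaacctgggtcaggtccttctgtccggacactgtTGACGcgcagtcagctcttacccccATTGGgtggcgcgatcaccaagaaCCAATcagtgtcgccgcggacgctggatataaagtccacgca
H2-D1: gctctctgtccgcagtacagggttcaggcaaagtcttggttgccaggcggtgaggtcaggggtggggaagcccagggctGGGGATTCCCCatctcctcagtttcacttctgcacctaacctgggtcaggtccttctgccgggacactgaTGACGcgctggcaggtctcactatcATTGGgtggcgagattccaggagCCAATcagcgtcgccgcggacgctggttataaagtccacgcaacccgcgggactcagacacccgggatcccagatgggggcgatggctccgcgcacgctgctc
H2-T23: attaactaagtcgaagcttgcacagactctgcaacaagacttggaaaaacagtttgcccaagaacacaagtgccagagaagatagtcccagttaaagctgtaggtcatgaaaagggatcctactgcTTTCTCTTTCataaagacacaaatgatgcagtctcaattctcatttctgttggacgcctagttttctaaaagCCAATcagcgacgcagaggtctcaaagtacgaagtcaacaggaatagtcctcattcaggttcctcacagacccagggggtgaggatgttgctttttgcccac
Tap1: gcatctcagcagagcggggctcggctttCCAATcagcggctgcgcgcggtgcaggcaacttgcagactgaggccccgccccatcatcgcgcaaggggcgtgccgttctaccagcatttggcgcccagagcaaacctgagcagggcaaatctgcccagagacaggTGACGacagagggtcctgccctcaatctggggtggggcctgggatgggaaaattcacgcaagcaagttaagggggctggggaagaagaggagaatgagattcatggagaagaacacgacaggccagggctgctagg
Erap1: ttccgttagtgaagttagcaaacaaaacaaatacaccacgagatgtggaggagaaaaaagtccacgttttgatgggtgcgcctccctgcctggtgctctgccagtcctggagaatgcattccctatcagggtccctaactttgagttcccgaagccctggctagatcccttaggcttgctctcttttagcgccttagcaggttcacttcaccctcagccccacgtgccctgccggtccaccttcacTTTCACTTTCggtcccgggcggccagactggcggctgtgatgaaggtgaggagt

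In the promoters of B2m, H2-K1 and H2-D1, a TGACG was followed by an ATTGG that began 25 bases further on. The pair began at -78 in B2m, at -41 in H2-K1 and at -101 in H2-D1, counted with the RefSeq start as 0. H2-K1 has another RefSeq entry, not shown, and counted from its start the pair began at -55. This spacing, which was looked for after the matches had been seen, occurred on either strand in 31 of 32851 promoters, or 0.0944%, and among 6 matched of 8 further class I genes it occurred at H2-M3. H2-K1 and H2-D1 also shared a kappa-B like match 70 bases before the TGACG and a second CCAAT box after the first. The second box began 24 bases after the first in H2-K1 and 23 in H2-D1. Compared without gaps, they were identical at 101 of 124 bases (81.5%) from the kappa-B like match to the second box. Over the 240 positions both windows share, identity without gaps was 73.3%. Bases past the change in spacing were compared out of step, so both shares may be lower than with gaps allowed.

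An ISRE core was found in B2m at -139, in H2-T23 at -124 and in Erap1 at -4. Of all 32851 promoters, 3.44% held an ISRE core, 1.1% a kappa-B like match, 20.8% a TGACG and 37.4% a CCAAT. Tap1 had 1 CCAAT at -222 and 1 TGACG at -86, and Tapbp had 2 matches to the CCAAT box. The ratio of observed to expected CpG ranged from 0.340 in H2-T23 to 0.682 in B2m, against a median of 0.384 over all promoters. A match of letters is a description of the sequence and not of binding. Elements that differ from the searched letters in sequence or spacing were not marked. A promoter without a match, such as H2-K1 or H2-D1 for the ISRE core, may thus still hold such an element.

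Nearly all members had an acetylated site. A peak lay within 10 kb of 9 and 8 of the 9 genes in WT replicates 1 and 2 and of 9, 8 and 9 in TPdh-/- replicates 1, 2 and 3, where the share over all protein-coding genes was 54% and 36.4% in WT and 23.2%, 24.7% and 39.2% in TPdh-/-. Promoter peaks, within 3000 bp of a start site of the gene, were found at 9 and 8 members in WT and at 7, 7 and 8 in TPdh-/-, against 42.1% and 24.8%, and 15.3%, 16.5% and 27.9% of all genes. In all 5 libraries, 7 of 9 members had a promoter peak (10.9% of all genes) and 7 a peak within 10 kb (17.1% of all genes). The 7 were B2m, H2-K1, H2-D1, Tap1, Tapbp, Nlrc5 and Erap1, and the remaining members were H2-T23 and Tap2.

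**Figure D1:**
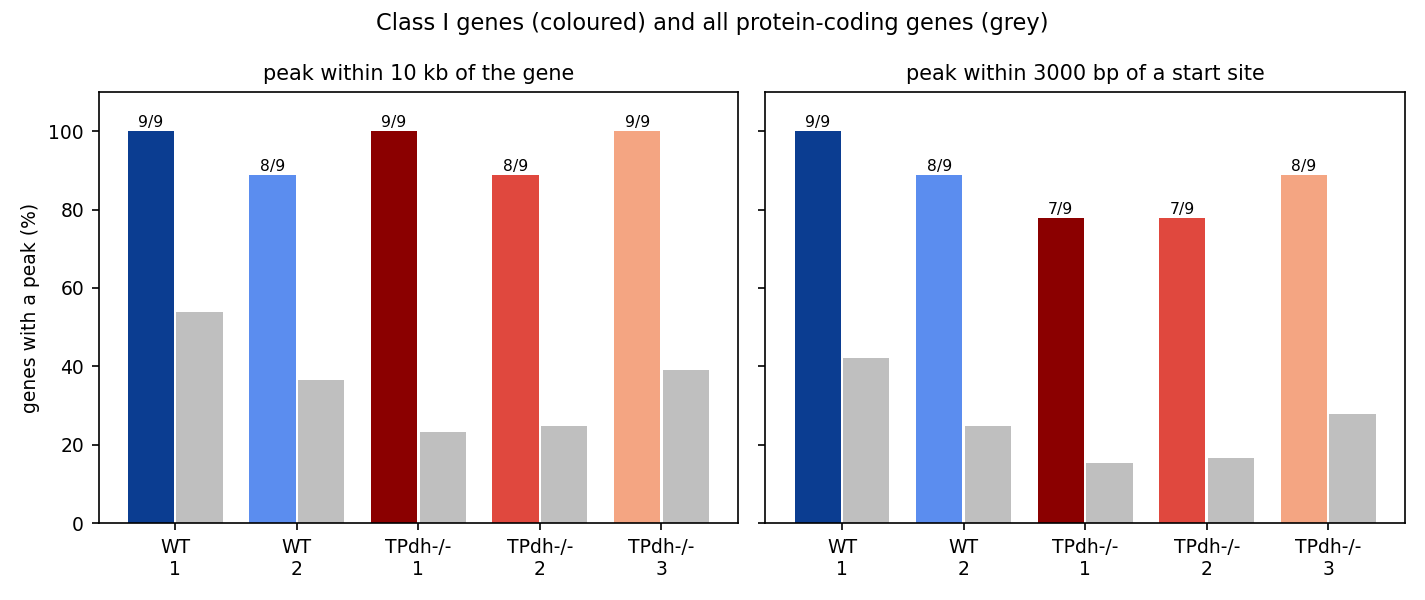
Bars give the percentage of genes with a peak within 10 kb of the gene (left) or within 3000 bp of a start site (right) in each library, in colour for the 9 class I genes, with their number above the bar, and in grey for 21938 protein-coding genes. The class I bars stand at 7 to 9 of 9 genes in every library, while the grey bars range from 23.2% to 54% (left) and from 15.3% to 42.1% (right).

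The mean number of members with a peak differed by -0.167 between the groups, WT minus TPdh-/-, which was less than the spread between libraries of 0.624 (SD). With a promoter peak it differed by 1.17, which was more than that spread. The share of all genes with a promoter peak was also higher on average in WT. It was 42.1% and 24.8% in WT and 15.3%, 16.5% and 27.9% in TPdh-/-. Whether the members differed more than all genes was not tested. With each list shortened to the length of the shortest, promoter peaks remained at 6 and 5 members in WT and at 7, 7 and 7 in TPdh-/-, so the direction of the promoter count turned. Peaks covered 29792 and 13152 bp around the members in WT, and 14025, 12683 and 17251 bp in TPdh-/-. The whole lists covered 20.2 and 9.89 Mb in WT, and 4.85, 5.52 and 10.9 Mb in TPdh-/-. Without WT replicate 1, the log2 ratio of WT to TPdh-/- covered length at the members went from 0.55 to -0.16.

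**Figure D2:**
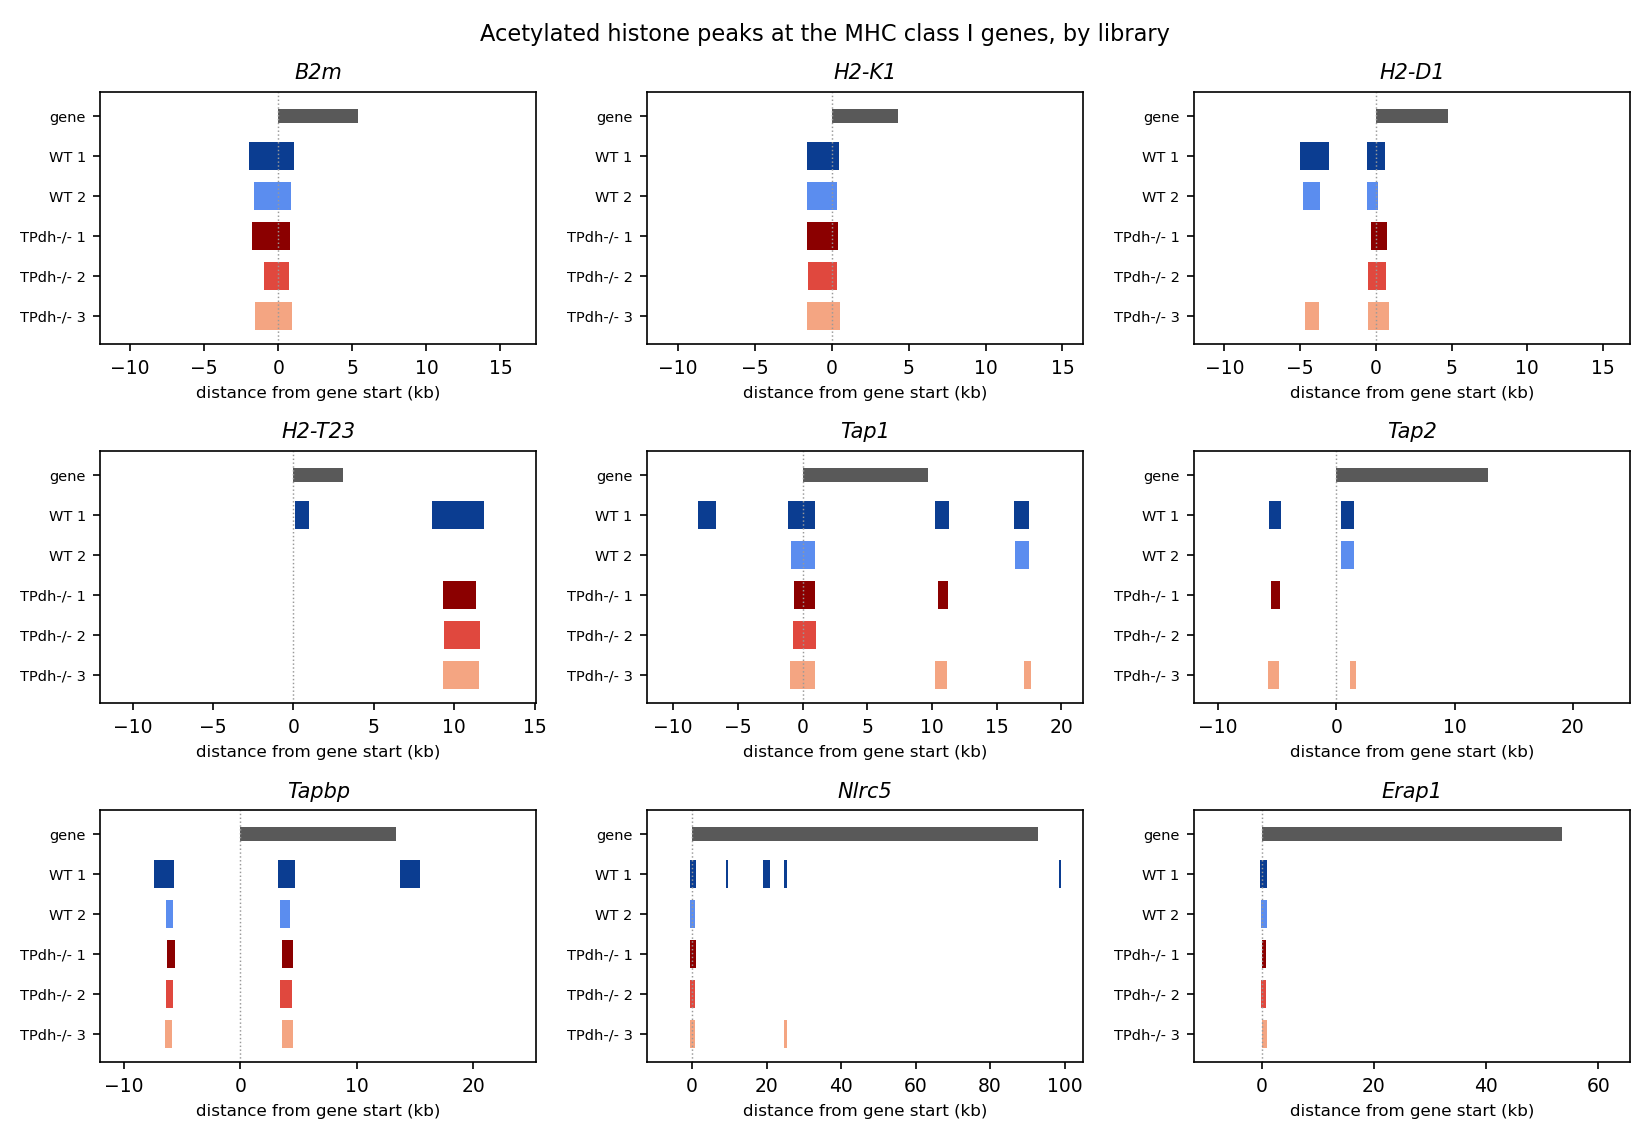
Each panel shows 1 gene as a grey bar and its peaks within 10 kb as coloured bars, 1 row per library, by distance from the GENCODE gene start in kb, in the direction of transcription and to scale within the panel. A bar lies over the start of B2m, H2-K1, H2-D1, Tap1 and Nlrc5 in all 5 rows, the Erap1 bar covers the start in 3 rows and begins 53 and 80 bp after it in TPdh-/- replicates 1 and 3, the Tapbp bar lies 3228 to 4712 bp inside the gene, and 6 of the 19 sites appear in the row of WT replicate 1 alone.

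The light chain gene B2m (chromosome 2, 122147686 to 122153083, plus strand) had 1 peak in each library, over its start and first exon, reaching from -1995 to 1052 bp around the start in WT replicate 1. It was 3048 and 2480 bp wide in WT and 2531, 1707 and 2509 bp in TPdh-/-, between the 92.6 and the 98.9 percentile of width in its lists. Fold enrichment over the MACS2 background was 2.26 and 2.39 in WT and 2.40, 2.38 and 2.43 in TPdh-/-. B2m thus had a wide peak of low fold, and the groups overlapped in both measures. By −log10 q it ranked 1570 and 1719 in WT and 1003, 1068 and 1167 in TPdh-/-, at the 90.2, 80.6, 79.6, 80.3 and 87.6 percentile of these lists in turn. All 300 bases of the B2m promoter shown, with the ISRE core, the TGACG and the ATTGG, lay under the peak in every library.

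H2-K1 (chromosome 17, 33996017 to 34000347, minus strand), a classical heavy chain gene, also had 1 wide peak over its start, of 2129 and 1929 bp for WT and 2043, 1908 and 2194 bp in TPdh-/-. Its fold enrichment was 2.84 and 3.00 in WT and 3.45, 2.78 and 2.80 in TPdh-/-. Library for library the groups overlapped, and the highest value belonged to TPdh-/- replicate 1. There H2-K1 ranked 385, at the 92.2 percentile, while it ranked 2317 and 1361 in WT (percentiles 85.5 and 84.6) and 1868 and 2523 in the other TPdh-/- libraries (percentiles 65.5 and 73.2). The difference in mean log2 fold, TPdh-/- minus WT, was 0.039 ± 0.108 (SE; exact permutation test, two-sided, p = 1, adjusted p = 1).

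H2-D1 (chromosome 17, 35262730 to 35267499, plus strand), the other classical heavy chain gene, had a narrower promoter peak of 1207 and 701 bp for WT and 1074, 1220 and 1390 bp in TPdh-/-. Its fold enrichment of 1.99 and 2.18 in WT was below that of 2.43, 2.59 and 2.26 in TPdh-/-, without overlap. It ranked 7327 and 5360 in WT and 3537, 1440 and 3616 in TPdh-/-, at the 54.1, 39.5, 28.1, 73.4 and 61.6 percentile, which overlapped between the groups. Of the promoter bases shown, the peak of WT replicate 2 covered 21, since it ended at -230 from the RefSeq start, and the peaks of the other 4 libraries covered all 300. A second site lay upstream, between -4983 and -3126 bp from the gene start, with a fold of 1.89 and 2.21 in WT and 1.81 in TPdh-/- replicate 3, and no peak in TPdh-/- replicates 1 and 2. Its peaks lay at the 38.7 and 46.6 percentile in WT and at the 3.30 percentile in TPdh-/- replicate 3.

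H2-T23 (chromosome 17, 36029773 to 36032855, minus strand) encodes Qa-1, a nonclassical heavy chain read by NKG2 receptors. Its promoter had a peak in WT replicate 1 alone, from 95 to 972 bp after the gene start, with a fold of 3.49 at the 76.4 percentile. The other peak within 10 kb lay past the end of H2-T23, 8587 to 11866 bp from its start, and within 3000 bp of a start of the class I gene H2-T24. That site had a fold of 1.74 in WT replicate 1 and 1.89, 1.83 and 1.78 in TPdh-/-, at the 41.9, 11.4, 23.9 and 23.2 percentile, and no peak in WT replicate 2. The H2-T23 promoter thus had no peak in 4 of 5 libraries. H2-T22, also within 10 kb, likewise had a promoter peak in WT replicate 1 alone, at the 76.7 percentile.

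The authors kept reads that map to a single place, and class I genes have near copies. Within 1000 bp of the H2-T23 start, 54.6% of 51-base stretches (51 bases being the read length) occurred at 1 place in the genome, compared with 97.7% at B2m, 97.1% at H2-D1, 90.3% at Tap2, 89.3% at H2-K1 and 100% at the other members. The median over all genes was 100%, and 13.0% of genes were under 90%. Among the 8 other class I and class I-like genes, 4 had a promoter peak in WT replicate 1 alone, with a share of 42.0% at H2-Q6, 47.4% at H2-Q7, 76.4% at H2-T22 and 100% at Mr1. The share was 88.0% at Cd1d1 and 99.5% at H2-T24, with a promoter peak in 4 libraries, and 92.8% at H2-Q4 and 96.6% at H2-M3, with one in all 5. H2-Q6, H2-Q7, H2-T23 and H2-T22, with the lowest shares of the genes given here, thus had a promoter peak in WT replicate 1 alone, as had Mr1 at 100%. H2-K1, at 89.3%, had one in all 5 libraries. Of all genes, 42.1% had a promoter peak in WT replicate 1, against 15.3% to 27.9% in the other libraries. The share of all genes with one in WT replicate 1 alone was not computed. How much of the absence of peaks at H2-T23 comes from the loss of reads without a single place was not tested.

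**Figure D3:**
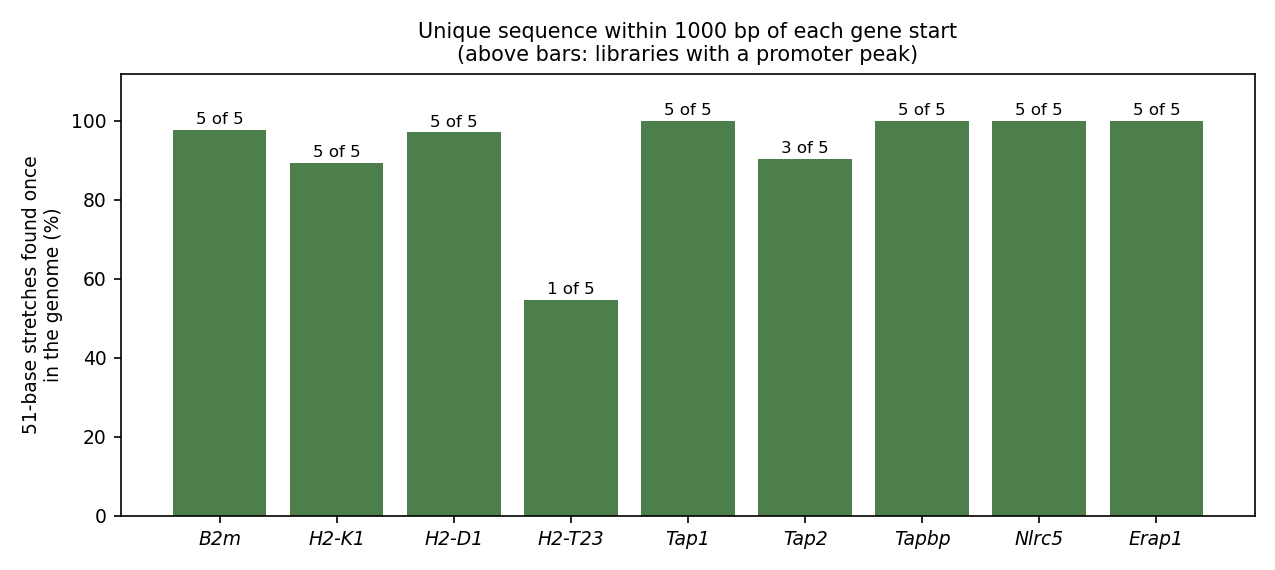
Bars give the percentage of 51-base stretches within 1000 bp of each gene start that occur at 1 place in the reference genome, and the label above each bar gives in how many of the 5 libraries the gene had a promoter peak. H2-T23, with the shortest bar at 54.6%, had a promoter peak in 1 of 5 libraries, H2-K1, at 89.3%, in 5 of 5, and Tap2, at 90.3%, in 3 of 5.

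Tap1 (chromosome 17, 34187553 to 34197225, plus strand), the first chain of the peptide pump, shares its promoter with Psmb9, a catalytic subunit of the immunoproteasome transcribed the other way from a RefSeq start 226 bases off. One peak covered both starts in all 5 libraries, with a width of 2081 and 1850 bp for WT and 1647, 1771 and 1912 bp in TPdh-/-, and cannot be divided between the genes. Its fold enrichment was 2.69 and 2.50 in WT and 3.21, 2.83 and 2.96 in TPdh-/-. Both WT values lay below every TPdh-/- value, with group means of 2.59 ± 0.132 (SD, n = 2) and 3.00 ± 0.195 (SD, n = 3). The peak ranked 2119 and 2913 in WT and 233, 571 and 391 in TPdh-/-, at the 86.7 and 67.1 and the 95.3, 89.5 and 95.9 percentile. Tap1 was the 1 member whose percentile also separated the groups, by 16.6 points (exact permutation test, two-sided, p = 0.2, adjusted p = 0.720), a direction found in 1.38% of the 2390 genes with a promoter peak in all 5 libraries; the reverse was found in 26.4%.

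Further sites lay around Tap1. A peak at the start of Psmb8, another immunoproteasome subunit, 10227 to 11307 bp from the Tap1 start, had a fold of 2.34 in WT replicate 1, 2.49 in TPdh-/- replicate 1 and 2.49 in TPdh-/- replicate 3. A site between -8095 and -6699 bp from the Tap1 start was called in WT replicate 1 alone, with a fold of 2.35 at the 12.5 percentile.

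Tap2 (chromosome 17, 34203527 to 34216321, plus strand), the second chain of the pump, had its promoter peak in fewer libraries than Tap1. It was called in both WT libraries and TPdh-/- replicate 3, with a fold of 2.34, 2.12 and 2.39 and a rank of 6039, 7671 and 5385, at the 62.2, 13.4 and 42.8 percentile. The peak was 1118 and 1119 bp wide in WT. In TPdh-/- replicate 3 it was 556 bp wide, at the 0.0425 percentile of width in that list. Its span, 404 to 1682 bp after the first GENCODE start, missed that start but held another annotated Tap2 start in each of the 3 libraries. In TPdh-/- replicate 1 the Psmb8 site was the peak found within 10 kb of Tap2, and TPdh-/- replicate 2 had none. These 2 neighbours on chromosome 17 thus differed in how often they were called, Tap1 in 5 of 5 libraries and Tap2 in 3 of 5.

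Tapbp (chromosome 17, 33915899 to 33929292, plus strand) encodes tapasin, which holds the heavy chain at the pump. Its promoter peak lay over the RefSeq start, at 33919478, in both WT libraries and TPdh-/- replicate 2. It began 29 and 13 bp after that start in TPdh-/- replicates 1 and 3. The first GENCODE start was not covered in any library. Fold enrichment was 3.17 and 2.84 in WT and 3.12, 3.00 and 3.19 in TPdh-/-, with overlap between the groups. The widths were 1485 and 852 bp for WT and 938, 1074 and 980 bp in TPdh-/-, and the percentiles 87.6, 58.3, 77.4, 65.5 and 84.3. A stronger peak, within 10 kb of Tapbp, lay at the start of Daxx, a histone chaperone gene, with a fold of 3.38 and 3.51 in WT and 3.30, 3.32 and 3.77 in TPdh-/-. It was the strongest peak of the Tapbp window in 4 libraries, with TPdh-/- replicate 1 as the exception, so values of the strongest peak within 10 kb do not stand for Tapbp itself. In WT replicate 1 a peak was also called at the start of Rgl2, at 2.65-fold.

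Erap1 (chromosome 13, 74639568 to 74693201, plus strand) trims peptides in the endoplasmic reticulum, and its promoter peak was by percentile the strongest of the members in WT replicates 1 and 2 and in TPdh-/- replicate 3. It ranked 525 and 552 in WT and 597, 654 and 362 in TPdh-/-, at the 96.7, 93.8, 87.9, 87.9 and 96.2 percentile. Fold enrichment was 3.59 and 3.32 in WT and 3.33, 3.35 and 3.66 in TPdh-/-, values that overlapped (log2 difference TPdh-/- minus WT -0.0039 ± 0.071, SE; exact permutation test, two-sided, p = 0.8, adjusted p = 0.959). The peak was 1388 and 1096 bp wide in WT and 675, 939 and 896 bp in TPdh-/-. Erap1 was the 1 member of 9 whose covered length was larger in both WT libraries, with means of 1242 ± 206 (SD, n = 2) and 837 ± 142 bp (SD, n = 3) (exact permutation test, two-sided, p = 0.2, adjusted p = 0.769). The same direction was found in 26% of the 12312 genes with a peak in any library, and the reverse in 0.0569%. The ISRE core of Erap1, 4 bases before to 5 bases after the RefSeq start, lay under the peak in all 5 libraries.

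Nlrc5 (chromosome 8, 94434356 to 94527272, plus strand), the transactivator of class I genes, had a promoter peak of 1801 and 1339 bp for WT and 1633, 1277 and 1420 bp in TPdh-/-. Its fold enrichment was 2.19 and 2.01 in WT and 2.66, 2.35 and 2.37 in TPdh-/-, with both WT values the lowest. It ranked 5519 and 6062 in WT and 728, 1927 and 2798 in TPdh-/-, at the 65.4, 31.6, 85.2, 64.5 and 70.3 percentile. The percentiles overlapped, since TPdh-/- replicate 2 lay just below WT replicate 1. Inside the long Nlrc5 gene body, peaks began 9135 and 19180 bp from the start in WT replicate 1 alone, and another site at 24717 bp was called in WT replicate 1 and TPdh-/- replicate 3, with a fold of 2.00 and 2.25. A last peak of WT replicate 1, at the start of Cpne2, was among the weakest of its list, at the 0.366 percentile.

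**Figure D4:**
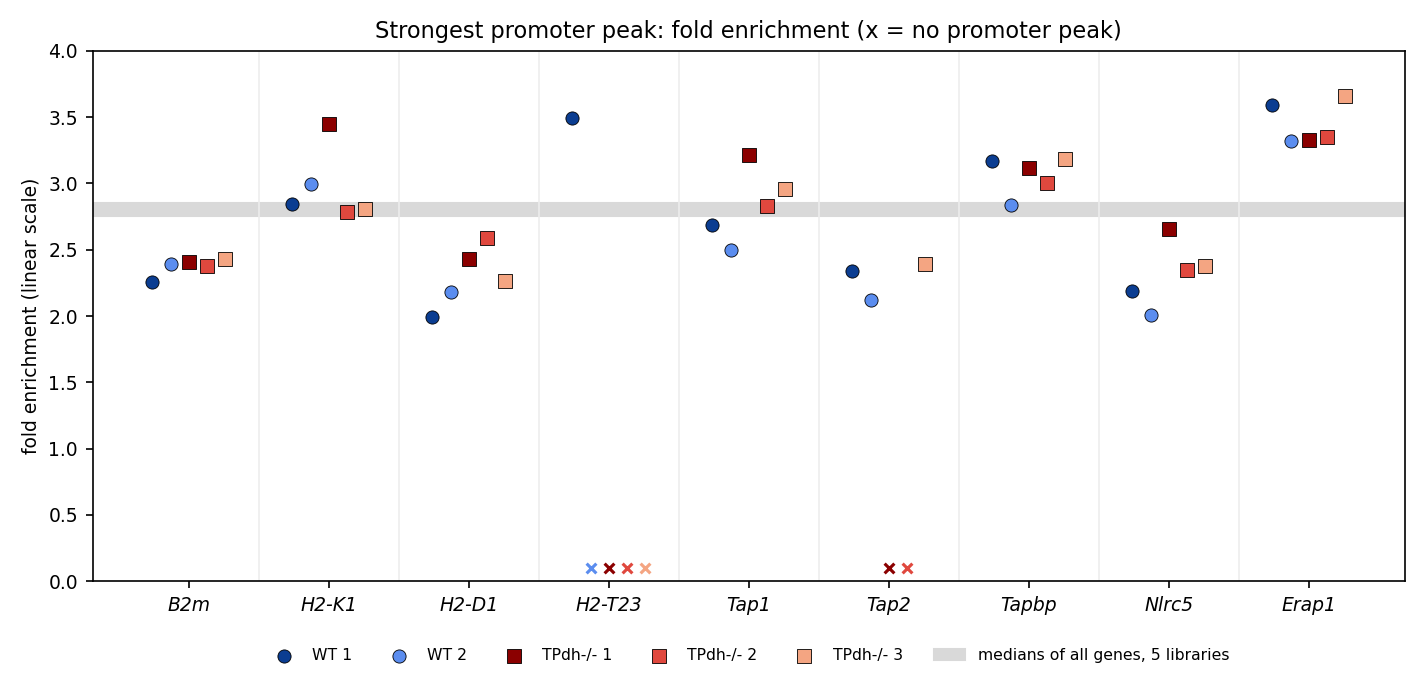
Points give the fold enrichment, on a linear scale, of the strongest promoter peak of each gene in each library, with circles for WT and squares for TPdh-/-, a cross where no promoter peak was called, and a grey band over the 5 library medians of all genes. For H2-D1, Tap1 and Nlrc5 both circles lie below all squares, and for B2m, H2-K1, Tapbp and Erap1 the symbols overlap.

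Fold enrichment of the promoter peak separated the groups at 3 of the 7 members that could be compared, H2-D1, Tap1 and Nlrc5, each lower in both WT libraries, a direction seen in 8.08% of 2390 genes. None of the 7 was higher in both WT libraries, a direction seen in 15.8%. The log2 difference, TPdh-/- minus WT, was 0.22 ± 0.086 (SE) for H2-D1, 0.21 ± 0.075 for Tap1 and 0.23 ± 0.085 for Nlrc5. For each of the 3, p was 0.2 and adjusted p was 0.837 (exact permutation test, two-sided, Benjamini-Hochberg over 2390 genes). With 2 libraries against 3 the smallest p is 0.2, so no gene could pass 0.05. B2m differed by 0.049 ± 0.043 (exact permutation test, p = 0.4, adjusted p = 0.855) and Tapbp by 0.048 ± 0.083 (exact permutation test, p = 0.6, adjusted p = 0.917).

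Over all 2390 genes the median log2 difference, WT minus TPdh-/-, was 0.028. The median fold of the whole list was itself lower in the longer lists, at 2.40 in WT replicate 1, 2.54 in WT replicate 2, and 2.65, 2.58 and 2.48 in TPdh-/-. With peaks of a −log10 q of at least 5 alone, the number of members lower in both WT went from 3 to 0, where 8 and 3 members in WT and 3, 2 and 5 in TPdh-/- still had a promoter peak. None of the 3 could then be compared, as H2-D1, Tap1 and Nlrc5 had a −log10 q of 2.63, 4.28 and 2.29 in WT replicate 2. With lists of equal length the number went to 1, Tap1. There H2-D1 and Nlrc5, past rank 4920 in both WT lists, could not be compared. Taking the strongest peak within 10 kb in place of the promoter peak, the same 3 members were lower in both WT (8.4% of 3761 genes) and 0 higher (15.5%).

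Rank numbers of the promoter peak were higher, hence weaker in place, in both WT lists at 5 of the 7 members, B2m, H2-D1, Tap1, Tapbp and Nlrc5, against 17.2% of genes, and at 0 of 7 they were lower, against 8.45%. H2-K1 and Erap1 overlapped. A rank number grows with the length of the list, and the percentile, which takes that length into account, separated Tap1 alone.

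**Figure D5:**
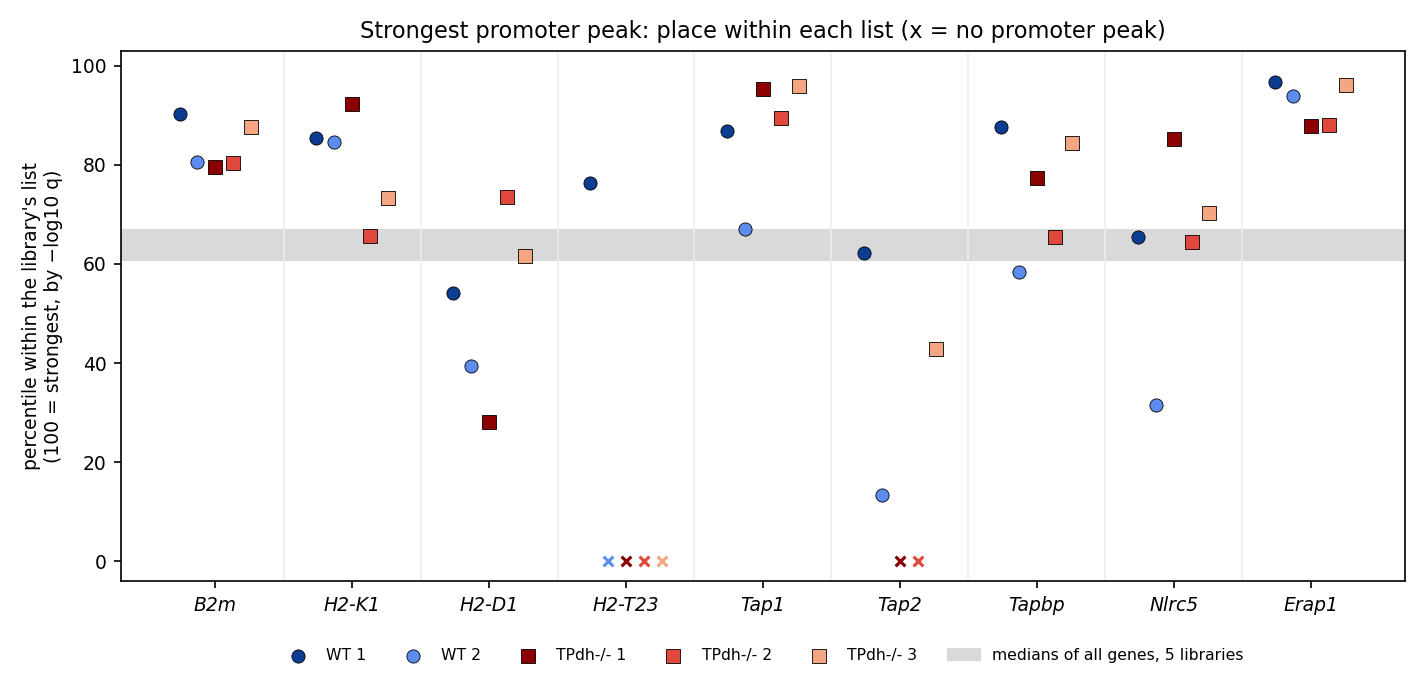
Points give the percentile, within its own list by −log10 q, of the strongest promoter peak of each gene, with circles for WT, squares for TPdh-/-, a cross where no promoter peak was called and a grey band from 60.8 to 66.9 over the medians of all genes. Erap1 and B2m lie above the band in all 5 libraries, Tap1 lies above it in all 5 with WT replicate 2, at 67.1, next to its upper edge, and H2-K1, H2-D1, Tap2, Tapbp and Nlrc5 reach into or below it.

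The order of the members differed between fold and percentile. The median fold of their promoter peaks was 2.69 and 2.45 in WT and 3.12, 2.78 and 2.62 in TPdh-/-, where all genes with a promoter peak had 2.79, 2.82, 2.85, 2.79 and 2.75. Their median percentile was 85.5 and 62.7 in WT and 85.2, 73.4 and 78.8 in TPdh-/-, where all genes had 66.9, 62.9, 60.8, 63.0 and 63.8. Members without a promoter peak have no place in these medians. B2m shows the contrast, with a fold of 2.26 to 2.43, below the medians of all genes, beside a percentile of 79.6 to 90.2 and one of the wider peaks of each list. Promoter fold ranged from 3.32 to 3.66 at Erap1, and was higher there than at the other 6 genes with a promoter peak in all 5 libraries, except in TPdh-/- replicate 1, where H2-K1 had 3.45 and Erap1 3.33. The ranges of H2-K1, from 2.78 to 3.45, Tapbp, from 2.84 to 3.19, and Tap1, from 2.50 to 3.21, overlapped. B2m, Nlrc5 and H2-D1 had lower ranges that overlapped one another. Those of Nlrc5, up to 2.66, and H2-D1, up to 2.59, also reached into the range of Tap1.

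The other genes of the pathway were counted in 5 lists. Of the 5 immunoproteasome genes, 5 and 4 had a promoter peak in WT and 4, 3 and 5 in TPdh-/-, and Psmb9 and Psme1, a proteasome activator, had one in all 5 libraries, Psmb9 at the higher mean percentile, 86.9. Of 4 partners of peptide loading, the counts were 4 and 3 in WT and 1, 2 and 4 in TPdh-/-, with the disulfide isomerase Pdia3 in all 5, at a mean percentile of 46.8. Of 8 other class I and class I-like genes, the counts were 8 and 3 in WT and 4, 3 and 4 in TPdh-/-, with H2-Q4 and H2-M3 in all 5 and H2-M3, a presenter of formylated peptides, the highest at a mean percentile of 91.5.

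Of 10 regulators of class I transcription, 9 and 6 had a promoter peak in WT and 6, 6 and 7 in TPdh-/-. Rfx5, Creb1 and the NF-Y subunits Nfya and Nfyc had one in all 5 libraries, and Nfyb had no peak within 10 kb in any. Nfyc had the highest mean percentile, 95.7. Of 6 class II genes, which present peptides to CD4 T cells and are mostly silent in mouse T cells, H2-DMa had a promoter peak in all 5 libraries, at a mean percentile of 46.4, and the others had none. H2-Aa, H2-Ab1, H2-Eb1 and Cd74 had no peak within 10 kb in any library. In all, 10 of these 33 genes had a promoter peak in all 5 libraries, beside 7 of the 9 members and 10.9% of all genes.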

How the data were processed

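Acetylated histones were profiled by ChIPseq in TM cells, in 2 WT and 3 TPdh-/- libraries grouped by their titles. The authors aligned reads to GRCm38/mm10, kept those that mapped to 1 place, removed blacklisted regions and called broad peaks per library. The submitters' processing notes name FastQC 0.11.9, BWA 0.7.17, SAMtools 1.15.1, MACS2 2.2.6, DiffBind 3.2, ChIPseeker 1.28.3 and R 4.1.0. The deposited lists give each peak a fold enrichment, a linear ratio over the MACS2 background, and the authors' −log10 p and −log10 q. The deposited integer score was not used. An input control is not given in the sources used here. Without read numbers no counting interval can be given.

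Peaks were placed on 21938 protein-coding genes of GENCODE M21 by at least 1 shared bp with Python 3.11.15, numpy 2.4.6, pandas 2.3.3, scipy 1.17.1, numba 0.67.0 and matplotlib 3.10.9. The strongest peak of a gene is that of highest −log10 q. Differences per gene were tested by an exact permutation test over the 10 ways to draw 2 of the 5 libraries, two-sided as double the smaller one-sided p, with Benjamini-Hochberg adjustment over all genes with a value, and the procedure was tested on simulated data. Counts over the members carry no test and stand beside the share over all genes. DiffBind needs reads and was not run.

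The members, gene lists and tests were chosen with earlier results of these data known. All 9 members are described. Other pathway genes are named where they lie within 10 kb of a member, had no peak in any library, or had the highest mean percentile of their list. Psme1, H2-Q4, H2-Q6, H2-Q7, Mr1, Cd1d1, Rfx5, Creb1, Nfya and single markers were named after their values were seen. The alternatives used stricter −log10 q minimums of 2 and 5, equal list lengths, windows of 3 or 50 kb or none, peak midpoints, promoters within 1000 bp, a block for the replicate number and each library left out in turn. Using the peak of highest fold, letting the promoter peak stand for a gene, and counting the opposite direction were added after the data were seen. One of the marker lists is not reported here. Other assays of the study were not used here.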

Additional observations from a re-analysis of the deposited data

How the results depend on the processing

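Values are WT minus TPdh-/-. The difference in members with a peak, -0.167, was 0.333 at a −log10 q of at least 2, 2.67 at 5, 1.17 with 3 kb or with the gene body alone, and -2.33 with lists of equal length, and ranged from -0.667 to 0.333 with 1 library left out, turning without WT replicate 2. The difference in members with a promoter peak, 1.17, was 2.17 at a −log10 q of at least 5 and -1.5 with lists of equal length, and ranged from 0.667 to 1.67 with 1 library left out. The log2 ratio of covered length, 0.55, was 1.09 at a −log10 q of at least 5 and -0.24 with lists of equal length, and ranged from -0.16 without WT replicate 1 to 1.02. No member had a fold higher in both WT libraries, and 1 did with a 50 kb window, and 0 to 1 did with 1 library left out, namely 1 without WT replicate 2, without TPdh-/- replicate 1 or without TPdh-/- replicate 3. The members with a lower promoter fold in both WT, 3, were 0 at a −log10 q of at least 5 and 1 with lists of equal length, and 3 to 5 with 1 library left out, 5 without WT replicate 1. For lack of a promoter peak in a WT list, the 3 could not be compared at a −log10 q of at least 5. The same held for H2-D1 and Nlrc5 with lists of equal length. The cause of the other changes was not tested.

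With the replicate number as a block, which drops TPdh-/- replicate 3, the difference in members with a peak was 0.00, that in members with a promoter peak 1.5, the log2 ratio of length 0.69, and 1 member had a higher fold in both WT libraries. The numbers are not said to pair the libraries.

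Single genes changed sign in the log2 fold of their strongest peak in 8 of 56 values, of their promoter peak in 5 of 42 and in covered length in 8 of 63, all among genes that overlapped between the groups. For Tapbp the log2 fold of the strongest peak, 0.023, was -0.048 with 3 kb and -0.0050 with the peak of highest fold. In covered length, H2-K1 went from -19.3 to 53.5 bp with the block, H2-D1 from 923 to -274 bp and H2-T23 from -101 to 439 bp with 3 kb. With 1 library left out, the log2 fold ranged from -0.092 to 0.062 for H2-K1, -0.038 to 0.099 for Tapbp and -0.052 to 0.060 for Erap1, the promoter fold of Tapbp from -0.13 to 0.031, and covered length from -119 to 80.7 bp for H2-K1, -2180 to 1978 bp for H2-T23, -96.0 to 3351 bp for Tapbp and -338 to 3744 bp for Nlrc5. H2-D1, Tap1 and Nlrc5 kept a lower mean fold in WT in each alternative computed per gene. For fold these were the 3 kb window, the peak of highest fold, the block and each library left out. The −log10 q minimums and equal list lengths were not computed per gene.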
